A study of Oryzias latipes with 27 samples.

Results

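The miR-221 and miR-222 family was followed in small RNA of medaka (Oryzias latipes) gonads. A row belonged to it when its miRNA name began with miR-221 or miR-222, with any letter and either arm, and 7 of the 437 mature miRNAs in the deposited tables did. They were miR-221-3p, miR-221a-5p and miR-221b-5p, and miR-222a-3p, miR-222a-5p, miR-222c-3p and miR-222c-5p. A hairpin precursor gives a mature miRNA from each of its arms, named 5p and 3p, so the list held 3 products of the 3p arm and 4 of the 5p arm.

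The 9 groups had 3 libraries each, 27 in all, and came from fish of 10, 30 or 120 days after hatching, written D10, D30 and D120. MT_Fe_Ov is the ovary of XY fish in which DMY, the male-determining gene of the medaka Y, was disrupted with TALEN nucleases and which develop as females (XY DMY-, a stable line). WT_Fe_Ov stands for wild-type XX ovary and WT_Ma_Te for wild-type XY testis. The deposited titles call the MT_Fe_Ov samples knockout male gonads while their sex and tissue fields read female and ovary. The D10 samples hold the gonad primordium with neighbouring tissue, which cannot be told apart from stage. DMY makes a protein-coding transcript that was not analysed here, so the genotypes rest on the labels.

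miR-221 and miR-222 are transcribed together from neighbouring hairpins in vertebrates. Their 3p arms, the strands usually loaded into the silencing complex, share a seed and so a set of possible targets. In mammals the pair is known for repressing the receptor KIT and the cell cycle inhibitor CDKN1B, in endothelium and vascular smooth muscle among other cells. In mouse testis the pair is known to keep spermatogonia undifferentiated through KIT. In the RefSeq annotation of the ASM223467v1 assembly, the build used by the authors, mir221 lies on chromosome 2 from 21457407 to 21457509 and mir222 from 21457546 to 21457651, 36 bases apart. Both hairpins lie within the span of the protein-coding gene LOC101173532 (chromosome 2, 21416172 to 21495012). The protein-coding gene LOC101161131 ends 100 bases before mir221. That table has 1 hairpin of each name, and which of the miR-222a and miR-222c copies its mir222 stands for was not determined.

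Values are RPM as deposited, the reads of a miRNA per 1000000 miRNA reads, so each is relative to the other miRNAs of its library. Library totals were 2518868 to 8818687 counts at D10, 54535 to 810120 at D30 and 1054214 to 3517578 at D120. The D30 MT_Fe_Ov libraries held 107271, 54535 and 351194 counts, and 3 counts there equalled 8.54 to 55.0 RPM, which covers counting error only. A D30 MT_Fe_Ov library, replicate 3, stood apart in a list of 18 neural miRNAs (miR-9, miR-124, miR-153 and miR-219), with 50827 summed RPM, against 93.2 and 385 RPM in the other D30 MT_Fe_Ov libraries. The gonad marker miR-202-5p was listed at 0 in every D120 MT_Fe_Ov library, averaged 259882 ± 16182 RPM (SD, n = 3) in D120 WT_Fe_Ov and was listed at 0 in every D120 WT_Ma_Te library. Its opposite arm, miR-202-3p, was present in all of them, with group means of 894 RPM for MT_Fe_Ov, 790 RPM for WT_Fe_Ov and 1350 RPM for WT_Ma_Te.

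The 3p arms made up nearly all of the family's reads. Over the 27 libraries miR-222a-3p averaged 7301 RPM, miR-222c-3p 6557 RPM and miR-221-3p 1432 RPM. By level in each library, miR-222a-3p ranked between 13th and 81st of the 437 miRNAs. The 5p arms were far lower. miR-222c-5p averaged 168 RPM, miR-222a-5p 85.6 RPM and miR-221a-5p 49.2 RPM. miR-221b-5p averaged 1.31 RPM and had a count in 18 of the 27 libraries, never more than 8 counts.

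At D30 the 3p arms of miR-222 were low in the DMY-disrupted ovary, high in the wild-type ovary and low in the testis. miR-222a-3p was at 2554, 4529 and 1005 RPM in D30 MT_Fe_Ov, at 11525, 7066 and 17670 RPM in D30 WT_Fe_Ov and at 1470, 982 and 1671 RPM in D30 WT_Ma_Te. Every WT_Fe_Ov library lay above every library of the other D30 groups, while MT_Fe_Ov and WT_Ma_Te overlapped. Such separation was common at D30. Of all miRNAs with a count, 58.7% of 378 did not overlap between WT_Fe_Ov and WT_Ma_Te, in either direction. Between MT_Fe_Ov and WT_Fe_Ov 29.1% of 302 did not. The means of miR-222a-3p were 2696 ± 1766 RPM in MT_Fe_Ov, against 12087 ± 5324 RPM in WT_Fe_Ov and 1374 ± 354 RPM in WT_Ma_Te (SD, n = 3 each). Among the miRNAs of its library miR-222a-3p ranked 39th to 66th in MT_Fe_Ov, 13th to 28th in WT_Fe_Ov and 69th to 81st in WT_Ma_Te. miR-222c-3p gave the same picture, with 2442, 4034 and 917 RPM in MT_Fe_Ov, 10853, 6793 and 16811 RPM in WT_Fe_Ov and 1393, 959 and 1558 RPM in WT_Ma_Te. The plot of 3p arms by library shows the D30 wild-type ovary near the D10 level and the other D30 groups below it.

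**Figure D1:**
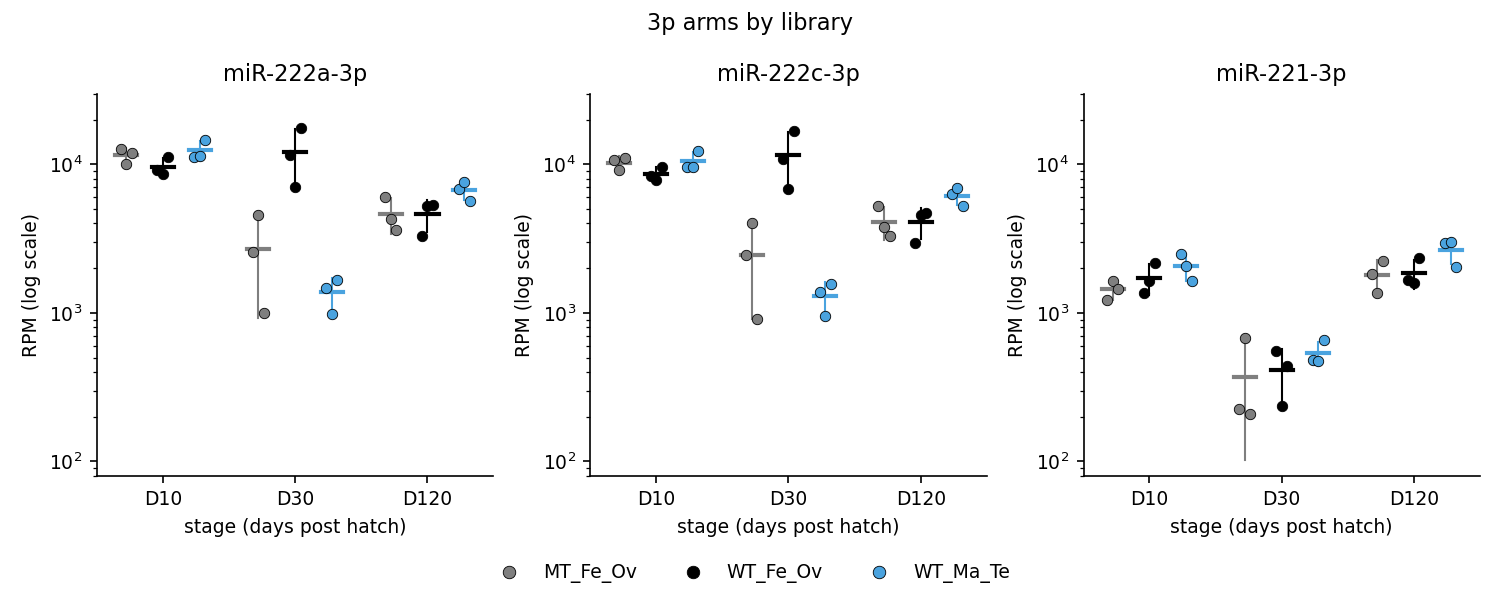
RPM of the 3p arms of miR-222a, miR-222c and miR-221 in each of the 27 libraries (points, log scale), with the group mean (horizontal line) and SD (vertical line, n = 3), by stage and genotype. At D30 miR-222a-3p averaged 2696 RPM in MT_Fe_Ov, against 12087 RPM in WT_Fe_Ov and 1374 RPM in WT_Ma_Te, while the D30 means of miR-221-3p lay between 370 and 538 RPM.

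The genotypes were then compared at D30 with edgeR's quasi-likelihood test on the deposited counts. A miRNA was called when its Benjamini-Hochberg adjusted p was 0.05 or less and it differed by 1 or more on the log2 scale in either direction. Of the 6 family members tested, 2 were called between WT_Fe_Ov and WT_Ma_Te, both higher in the ovary, where 46.8% of the 250 miRNAs tested were called in either direction and 16.4% were called higher. The log2 fold change was 3.26 for miR-222a-3p (edgeR, SE 0.52, adjusted p = 0.000932) and 3.26 for miR-222c-3p (edgeR, SE 0.52, adjusted p = 0.000891). In RPM the group means differed 8.80-fold and 8.81-fold. Over all miRNAs tested the median was -0.65 in this contrast and that of the 6 members -0.13. No other member was called.

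Between the ovary groups at D30, both 3p arms of miR-222 fell in MT_Fe_Ov relative to WT_Fe_Ov. The log2 fold change was -2.04 for miR-222a-3p (edgeR, SE 0.50, adjusted p = 0.0129) and -2.09 for miR-222c-3p (edgeR, SE 0.49, adjusted p = 0.0111). These were the 2 members called, both lower, where 28.4% of the 250 miRNAs were called and 9.6% were called lower. The median of all miRNAs was 0.17. Both calls held when any 1 of the 6 libraries was left out, with values of miR-222a-3p between -2.54 and -1.65, and -1.70 without the neural-rich MT_Fe_Ov replicate 3 (edgeR, adjusted p = 0.0260). Neither passed an adjusted p of 0.01.

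Between D30 MT_Fe_Ov and WT_Ma_Te 0 of 6 members were called by edgeR, with 3 at an unadjusted p under 0.05, and DESeq2 called 2. Of all 250 miRNAs 31.6% were called by edgeR, and DESeq2 called 84. At least 31.6% of all miRNAs thus had an unadjusted p under 0.05 by edgeR, and the full share is not given here. miR-222a-3p had a log2 fold change of 1.23 (edgeR, SE 0.49, adjusted p = 0.0820) and miR-222c-3p one of 1.18 (edgeR, SE 0.48, adjusted p = 0.0870). Without MT_Fe_Ov replicate 3, which holds the lowest level of its group, the values were 1.57 (adjusted p = 0.0265, edgeR) and 1.52 (adjusted p = 0.0269, edgeR), and both were called. Of the 6 fits with 1 library left out, this was the only 1 that called them. Over these fits miR-222a-3p lay between 0.79 and 1.57 (highest adjusted p = 0.217, edgeR). The range of miR-222c-3p was 0.77 to 1.52 (highest adjusted p = 0.223, edgeR). Both ovary groups were set against the same testis libraries. Averaged over the ovary groups, miR-222a-3p was above WT_Ma_Te by 2.24 on the log2 scale (edgeR, SE 0.47, adjusted p = 0.00337) and miR-222c-3p by 2.22 (edgeR, SE 0.46, adjusted p = 0.00337). These 2 members were the ones called there, where 38% of miRNAs were called and 11.2% were called higher.

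**Figure D2:**
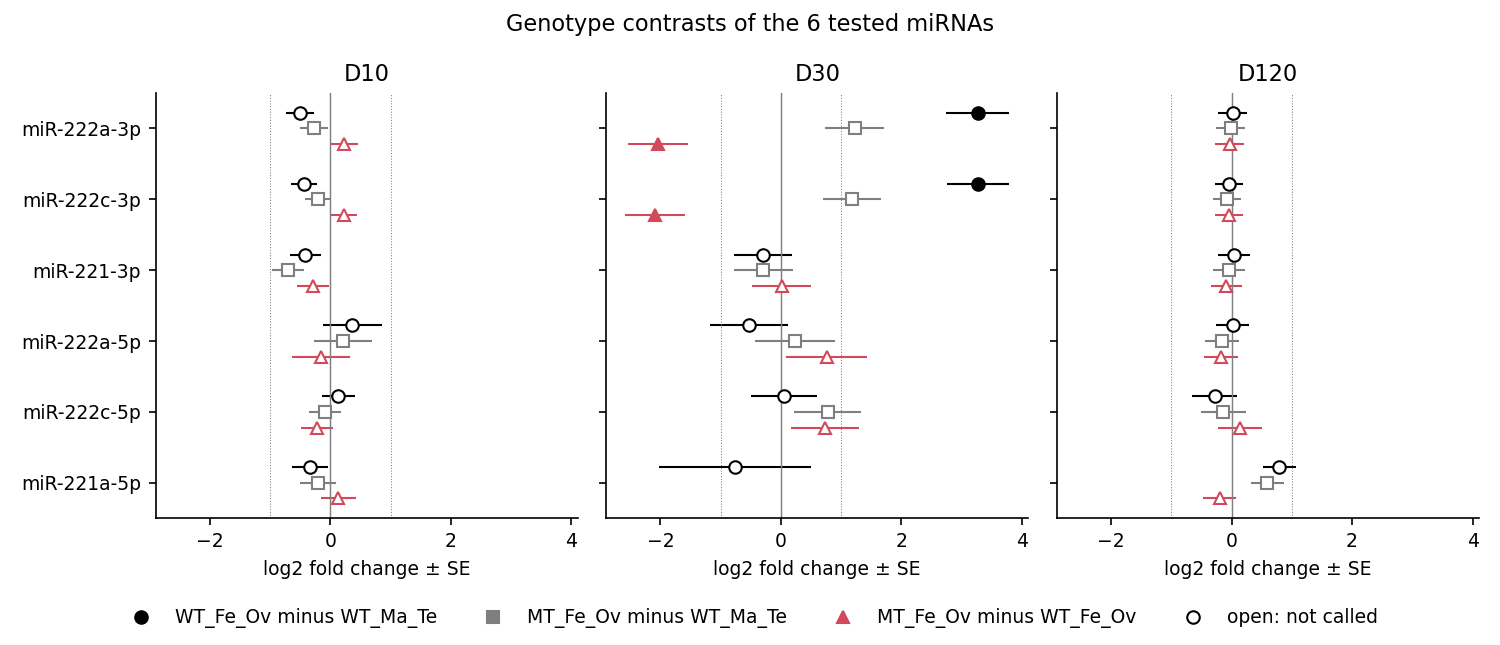
Log2 fold change ± SE (edgeR) of the 6 tested family members in the 3 genotype contrasts at D10, D30 and D120. Filled symbols passed the adjusted p of 0.05 and the log2 fold change of 1 (dotted lines), and the 4 filled symbols are miR-222a-3p and miR-222c-3p at D30. D30 contrasts of MT_Fe_Ov for miR-221a-5p are left out because all MT_Fe_Ov libraries were at 0.

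The 3p arm of miR-221, whose hairpin neighbours that of miR-222, was not called in any D30 contrast. It was at 224, 678 and 208 RPM in MT_Fe_Ov, at 555, 236 and 440 RPM in WT_Fe_Ov and at 484, 478 and 652 RPM in WT_Ma_Te. The 3 groups overlapped. Its log2 fold change was -0.31 for WT_Fe_Ov against WT_Ma_Te (edgeR, SE 0.48, adjusted p = 0.659), -0.29 for MT_Fe_Ov against WT_Ma_Te (edgeR, SE 0.49, adjusted p = 0.692) and 0.02 for MT_Fe_Ov against WT_Fe_Ov (SE 0.49). These SEs leave room for differences of about the size of the fold change threshold.

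The ratio of miR-222a-3p to miR-221-3p was set side by side in the D30 groups. Whether miR-222a is the copy whose hairpin lies beside mir221 was not determined. Per read of miR-221-3p there were 11.4, 6.68 and 4.84 reads of miR-222a-3p in MT_Fe_Ov, 20.7, 29.9 and 40.1 in WT_Fe_Ov and 3.04, 2.06 and 2.56 in WT_Ma_Te. The 3 groups did not overlap in this ratio, which averaged 7.64 ± 3.40, 30.3 ± 9.70 and 2.55 ± 0.492 in that order (SD, n = 3 each). WT_Fe_Ov already stood apart in miR-222a-3p alone. Of single miRNAs with a count, 48.3% of 379 did not overlap between D30 MT_Fe_Ov and WT_Ma_Te. No such share is given for ratios. In MT_Fe_Ov the ratio rests on only 24, 37 and 73 counts of miR-221-3p. At D120 the ratio averaged 2.70 in MT_Fe_Ov, 2.52 in WT_Fe_Ov and 2.53 in WT_Ma_Te, and at D10 it averaged 8.22, 5.72 and 6.29 in that order. Within a library the ratio does not depend on scaling, but reads of different miRNAs can ligate and amplify unequally, so it is compared between libraries and not read as a ratio of molecules.

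The 5p arms of miR-222 did not follow the 3p arms at D30. miR-222a-5p was at 186, 183 and 68.3 RPM in MT_Fe_Ov, at 97.5, 38.1 and 152 RPM in WT_Fe_Ov and at 120, 178 and 158 RPM in WT_Ma_Te. miR-222c-5p was at 419, 770 and 140 RPM in MT_Fe_Ov, at 480, 187 and 238 RPM in WT_Fe_Ov and at 227, 308 and 376 RPM in WT_Ma_Te. In both, the 3 groups overlapped and the wild-type ovary did not have the highest mean. For WT_Fe_Ov against WT_Ma_Te the log2 fold change was -0.53 for miR-222a-5p (edgeR, SE 0.65, adjusted p = 0.572) and 0.05 for miR-222c-5p (edgeR, SE 0.55, adjusted p = 0.969). In MT_Fe_Ov these levels rest on 10 to 24 counts of miR-222a-5p and 42 to 49 counts of miR-222c-5p per library.

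**Figure D3:**
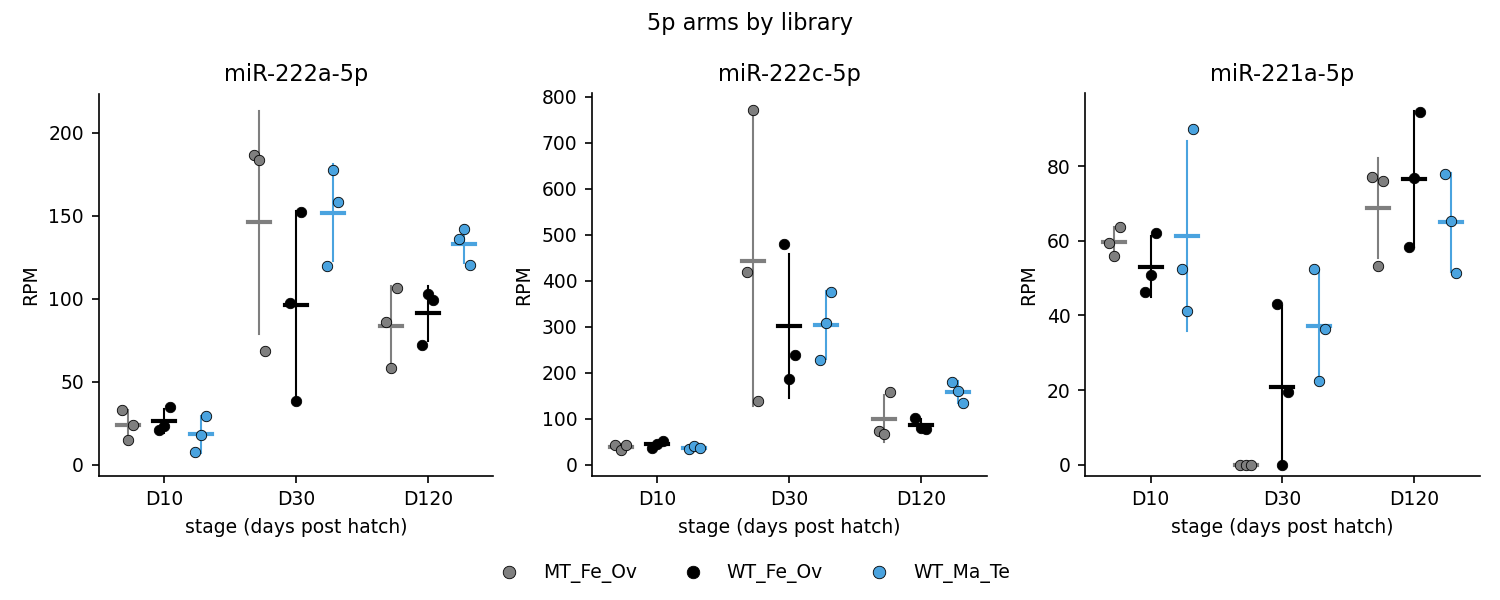
RPM of the 5p arms of miR-222a, miR-222c and miR-221a in each library (points), with the group mean and SD (lines, n = 3). The 5p arms of miR-222 averaged 95.9 to 443 RPM in the D30 groups and 18.2 to 44.5 RPM in the D10 groups, and miR-221a-5p was at 0 in all D30 MT_Fe_Ov libraries.

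The share of the 3p arms in the family's summed counts at D30 was 89.6%, 90.6% and 91.1% in MT_Fe_Ov, 97.4%, 98.4% and 98.8% in WT_Fe_Ov and 89.3%, 82.6% and 87.1% in WT_Ma_Te. The means were 90.5% ± 0.773 in MT_Fe_Ov, 98.2% ± 0.762 in WT_Fe_Ov and 86.3% ± 3.42 in WT_Ma_Te (SD, n = 3 each), and WT_Fe_Ov lay above every other D30 library. At D10 the share was between 99.3% and 99.6% in all 9 libraries, and at D120 between 96.4% and 98.2%. For miR-222c alone, the 3p arm held 85.4% ± 1.41 of the reads of both arms in D30 MT_Fe_Ov, 97.2% ± 1.42 in D30 WT_Fe_Ov and 80.8% ± 5.16 in D30 WT_Ma_Te. For miR-222a it held 94.3% ± 1.57, 99.3% ± 0.179 and 89.5% ± 4.20 in the same order.

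**Figure D4:**
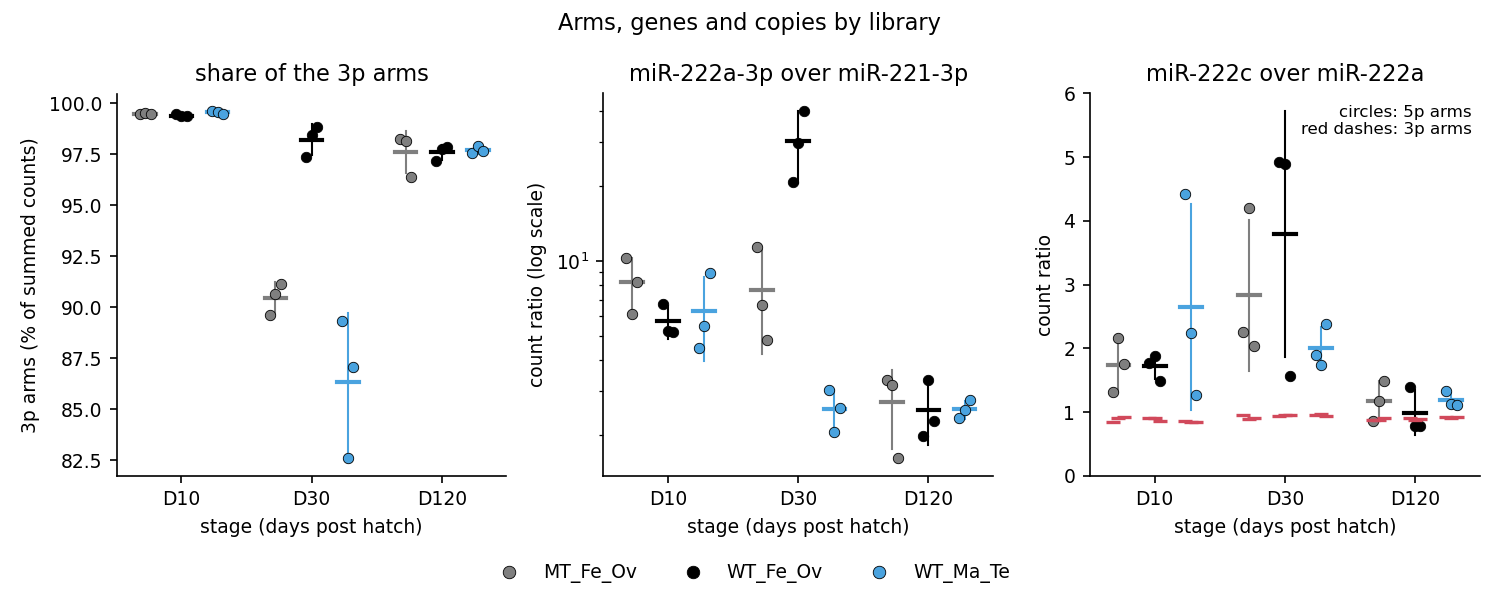
Left, share of the 3p arms in the summed counts of the family. Middle, counts of miR-222a-3p per count of miR-221-3p (log scale). Right, counts of miR-222c per count of miR-222a for the 5p arms (circles) and the 3p arms (red dashes). Points are libraries and lines are group means and SD (n = 3). The D30 mean of the 3p share was 90.5% in MT_Fe_Ov, 98.2% in WT_Fe_Ov and 86.3% in WT_Ma_Te, and the 3p copies stayed between 0.842 and 0.977.

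The copies miR-222a-3p and miR-222c-3p moved together in every library. The count of miR-222c-3p per count of miR-222a-3p was between 0.842 and 0.977 over the 27 libraries. Its SD on the log2 scale was 0.0595, beside 0.0531 for counting error pooled over the 27 libraries. The shallow D30 libraries add most to that pooled value. At D10, with 24284 or more counts of each copy and so less counting error, the ratio still ranged from 0.842 to 0.920. The pooled value therefore does not show that the copies agree within counting error. The copies of the 5p arm varied more. Their ratio was between 0.781 and 4.92, with an SD of 0.737 on the log2 scale, against 0.233 from counting. How the authors treated reads that match several near-identical miRNAs is not stated, so the 3p copies may share reads and their agreement is no independent support. Their levels may likewise not add up. With all 7 rows summed as deposited, the family held 6120 ± 3937 RPM in D30 MT_Fe_Ov, against 24402 ± 10530 RPM in D30 WT_Fe_Ov and 3711 ± 765 RPM in D30 WT_Ma_Te (SD, n = 3 each).

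miR-221a-5p, the passenger arm of miR-221, was at 0 counts in all 3 D30 MT_Fe_Ov libraries. It was at 43.2, 0 and 19.4 RPM in D30 WT_Fe_Ov and at 52.5, 22.4 and 36.2 RPM in D30 WT_Ma_Te. With 0 read as at most 3 counts in each library, a mean limit of 30.5 RPM, its level in MT_Fe_Ov was at least 1.21-fold lower than in WT_Ma_Te. The WT_Fe_Ov mean of 20.9 RPM lay under this mean limit, which so gave no bound above 1. The shallowest MT_Fe_Ov library weighs most in it, with a limit of 55.0 RPM against 8.54 RPM in the deepest. It was not called between D30 groups in the fit of the 9 D30 libraries (adjusted p = 0.0816 against WT_Ma_Te and 0.140 against WT_Fe_Ov, edgeR). In other fits it was called lower in MT_Fe_Ov. Against WT_Ma_Te this held with the 6 libraries compared only (edgeR, adjusted p = 0.0158) and with all 27 libraries (edgeR, adjusted p = 0.00357). Against WT_Fe_Ov it held with all 27 libraries (edgeR, adjusted p = 0.0121) and without D30 WT_Fe_Ov replicate 2, the library of its group at 0 (edgeR, adjusted p = 0.0284). miR-221b-5p did not reach the minimum of 10 counts in 3 libraries and was not tested. It had 1, 1 and 0 counts in D120 MT_Fe_Ov, 1, 4 and 3 counts in D120 WT_Fe_Ov and 8, 4 and 7 counts in D120 WT_Ma_Te.

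Markers of other cells were read beside the D30 difference in miR-222. A list of 5 skin and epithelium miRNAs (miR-203 and miR-205) summed to 131, 128 and 105 RPM in D30 MT_Fe_Ov, to 4661, 5004 and 2568 RPM in D30 WT_Fe_Ov and to 1674, 1014 and 1325 RPM in D30 WT_Ma_Te. It moved with miR-222a-3p in being highest in WT_Fe_Ov, and 3 of its 4 tested miRNAs were called higher in WT_Fe_Ov than in WT_Ma_Te and 2 were called lower in MT_Fe_Ov than in each of the other D30 groups. It departed from miR-222a-3p in MT_Fe_Ov, where the list lay below WT_Ma_Te and miR-222a-3p did not. Within WT_Fe_Ov the library with the most miR-222a-3p had the lowest skin sum. None of the 5 was at 0 in a whole group. The MT_Fe_Ov sums rest on few counts, since 3 counts equal 28.0, 55.0 and 8.54 RPM in those libraries. The part of such tissue in the result was not tested.

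The endothelial list, both arms of miR-126b, summed to 1967, 3759 and 2022 RPM in D30 MT_Fe_Ov, to 3122, 2399 and 2505 RPM in D30 WT_Fe_Ov and to 9881, 9926 and 10478 RPM in D30 WT_Ma_Te. miR-126 is a defining miRNA of endothelium. Its order of groups was not that of miR-222. miR-126b-3p had a log2 fold change of -1.82 in WT_Fe_Ov against WT_Ma_Te (edgeR, SE 0.24, adjusted p = 0.000333). Between the ovary groups, where miR-222a-3p differed, its log2 fold change was 0.17 (edgeR, SE 0.24, adjusted p = 0.623). A list of 9 smooth muscle and stroma miRNAs (miR-143, miR-145, miR-199 and miR-214) summed to 28819 to 35462 RPM in MT_Fe_Ov, 55279 to 68018 RPM in WT_Fe_Ov and 101430 to 119228 RPM in WT_Ma_Te. Its members did not all move alike. Of its 6 tested miRNAs 1 was called higher and 4 lower in WT_Fe_Ov against WT_Ma_Te. In MT_Fe_Ov 0 were called higher and 3 lower against WT_Ma_Te, and 1 higher and 2 lower against WT_Fe_Ov. The erythroid list of 3 miRNAs had its group means in the opposite order to those of miR-222a-3p, with MT_Fe_Ov and WT_Ma_Te overlapping, and stood at 15913, 27964 and 7782 RPM in MT_Fe_Ov, 5025, 6433 and 5647 RPM in WT_Fe_Ov and 30723, 18444 and 26883 RPM in WT_Ma_Te. Of its 2 tested miRNAs 2 were called lower in WT_Fe_Ov and 1 lower in MT_Fe_Ov, each against WT_Ma_Te, and 1 was called higher in MT_Fe_Ov than in WT_Fe_Ov. The part of these cell types in the result was not tested. In bulk libraries, fewer cells of a type and less RNA per cell cannot be told apart.

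**Figure D5:**
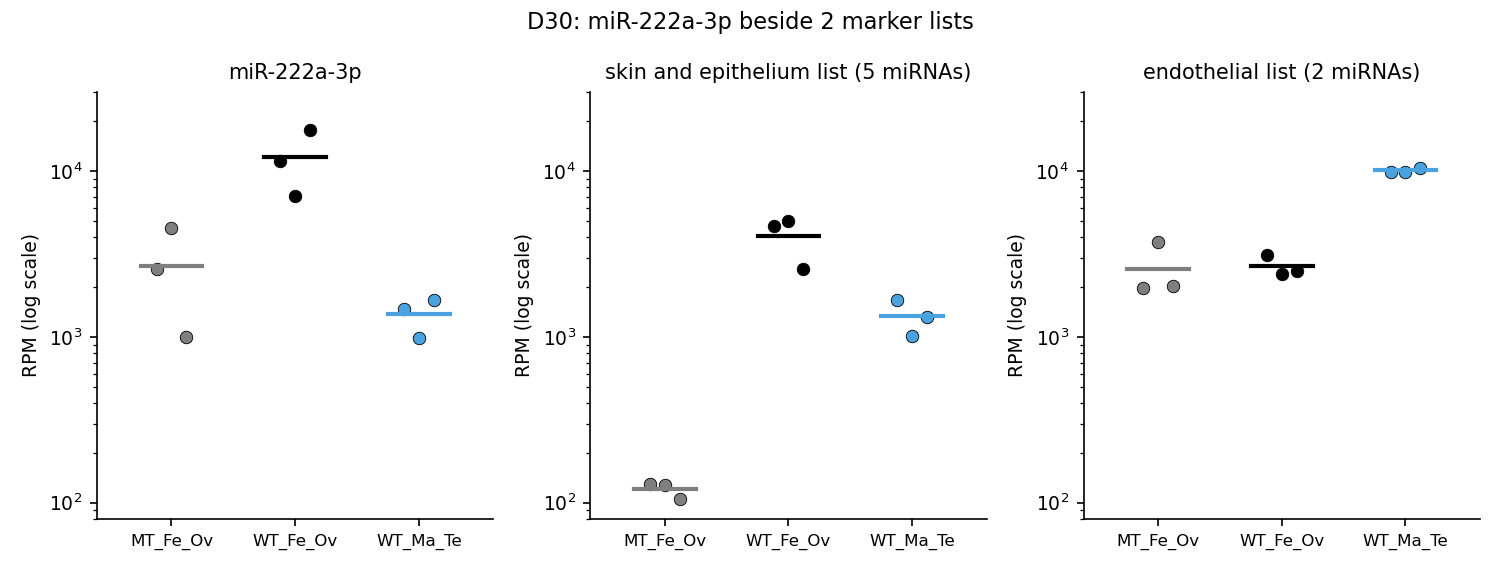
Levels at D30 of miR-222a-3p, of the summed skin and epithelium list and of the summed endothelial list, in RPM on a log scale, by group. Points are libraries and lines are group means. miR-222a-3p and the skin list were highest in WT_Fe_Ov, whereas the endothelial list was highest in WT_Ma_Te, at 9881 to 10478 RPM.

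At D10 no genotype difference in the family was called. miR-222a-3p was at 12608, 10056 and 11976 RPM in MT_Fe_Ov, at 9128, 8595 and 11215 RPM in WT_Fe_Ov and at 11156, 11424 and 14627 RPM in WT_Ma_Te. miR-221-3p averaged 1441 ± 213 RPM in MT_Fe_Ov, against 1719 ± 404 RPM in WT_Fe_Ov and 2074 ± 430 RPM in WT_Ma_Te (SD, n = 3 each). By edgeR 0 of 6 members were called in each of the 3 contrasts, as were 0% of the 388 miRNAs tested. DESeq2 also called 0 members in each. Of the 388 miRNAs, DESeq2 called 23 for WT_Fe_Ov against WT_Ma_Te, 9 for MT_Fe_Ov against WT_Ma_Te and 0 for MT_Fe_Ov against WT_Fe_Ov. The 1 value with an unadjusted p under 0.05 was miR-221-3p in MT_Fe_Ov against WT_Ma_Te, with a log2 fold change of -0.71 (edgeR, SE 0.26, adjusted p = 0.223). In these samples the skeletal muscle list summed to 89201 to 156474 RPM and the skin list to 71420 to 133797 RPM over the 9 libraries. The part of those tissues in the D10 levels was not tested.

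At D120 no genotype difference in the family was called either. miR-222a-3p was at 6049, 4311 and 3623 RPM in MT_Fe_Ov, at 3303, 5242 and 5303 RPM in WT_Fe_Ov and at 6843, 7553 and 5647 RPM in WT_Ma_Te. miR-221-3p averaged 1811 ± 448 RPM in MT_Fe_Ov, against 1861 ± 414 RPM in WT_Fe_Ov and 2666 ± 535 RPM in WT_Ma_Te (SD, n = 3 each). In RPM, 5 of the 7 members did not overlap between WT_Fe_Ov and WT_Ma_Te, all lower in the ovary, where 54.3% of 416 miRNAs with a count did not overlap. The directions of miR-222a-3p and miR-222a-5p, which were not called, turned with the scaling, and the differences in miR-222c-3p and miR-222c-5p shrank. With library totals as the only scaling, the median over all miRNAs was -0.54 on the log2 scale and miR-222a-3p was at -0.53 and miR-222c-3p at -0.59. With TMM the median over all miRNAs was 0.04, miR-222a-3p was at 0.02 (edgeR, SE 0.24, adjusted p = 0.959) and miR-222c-3p at -0.04. miR-222c-5p was at -0.87 with library totals only and at -0.28 with TMM (edgeR, SE 0.37, adjusted p = 0.567). miR-222a-5p was at -0.54 with library totals only and at 0.02 with TMM. miR-221b-5p was lower in WT_Fe_Ov also with TMM where a filter of 1 count in total admitted it, at -1.77 (edgeR, SE 0.58, adjusted p = 0.0315).

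By edgeR 0 of 6 members were called at D120 in each contrast, and DESeq2 also called 0. The averaged ovary groups against WT_Ma_Te likewise gave 0 calls at D10 and D120, where 0% and 39% of miRNAs were called, with 1 member at an unadjusted p under 0.05 at each. The share of all miRNAs at that unadjusted p is not given here. The shares of all 344 miRNAs called were 38.1% for WT_Fe_Ov against WT_Ma_Te, 36% for MT_Fe_Ov against WT_Ma_Te and 0.581% for MT_Fe_Ov against WT_Fe_Ov. miR-221a-5p was the only member with an unadjusted p under 0.05 in these 3 contrasts. It had a log2 fold change of 0.79 in WT_Fe_Ov against WT_Ma_Te (edgeR, SE 0.28, adjusted p = 0.0380), under the size required for a call. The intervals are narrow for the 3p arms. Between the ovary groups the log2 fold change of miR-222a-3p was -0.03 (SE 0.24), of miR-222c-3p -0.04 (SE 0.23) and of miR-221-3p -0.08 (SE 0.26).

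Across stages, the genotypes differed in the course of the 3p arms of miR-222. Relative to D10, miR-222a-3p fell at D30 in MT_Fe_Ov and WT_Ma_Te, with log2 fold changes of -2.08 in MT_Fe_Ov (edgeR, SE 0.33, adjusted p = 1.28e-05) and -3.38 in WT_Ma_Te (edgeR, SE 0.35, adjusted p = 3.53e-08). In D30 WT_Fe_Ov its log2 fold change was 0.39 (edgeR, SE 0.32, adjusted p = 0.264), and it was not called. Over all 399 miRNAs the median was -2.07 in MT_Fe_Ov, -3.34 in WT_Fe_Ov and -0.36 in WT_Ma_Te, so miR-222a-3p lay at the median in MT_Fe_Ov, lay above it in WT_Fe_Ov and lay below it in WT_Ma_Te.

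Between D30 and D120 the directions were the other way round. At D120 miR-222a-3p was lower than at D30 in WT_Fe_Ov (log2 fold change -1.31, edgeR, SE 0.32, adjusted p = 0.00119). In WT_Ma_Te it was higher, with a log2 fold change of 2.25 (edgeR, SE 0.33, adjusted p = 1.07e-05). In MT_Fe_Ov its log2 fold change was 0.93 (edgeR, SE 0.32, adjusted p = 0.0186), just under the size required. Over all miRNAs the median was 1.44 in MT_Fe_Ov, 2.02 in WT_Fe_Ov and 0.78 in WT_Ma_Te. miR-222a-3p thus lay below the median in both ovary groups and above it in WT_Ma_Te. Without D30 WT_Fe_Ov replicate 3, the library with the most miR-222a-3p, the change in WT_Fe_Ov was -0.89 (adjusted p = 0.0205, edgeR) and no longer called, and that of miR-222c-3p was -0.99 (adjusted p = 0.00880, edgeR).

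The 3p arm of miR-221 dipped at D30 in every genotype. Its log2 fold change of D30 over D10 was -1.96 in MT_Fe_Ov (SE 0.35), -2.02 in WT_Fe_Ov (SE 0.35) and -2.15 in WT_Ma_Te (SE 0.35). At D120, relative to D30, it was higher on the log2 scale by 2.50 in MT_Fe_Ov (SE 0.36), 2.29 in WT_Fe_Ov (SE 0.35) and 2.28 in WT_Ma_Te (SE 0.35). All 6 changes were called by edgeR, with adjusted p between 3.53e-06 and 5.73e-05. The medians over all miRNAs for D30 over D10 were -2.07 in MT_Fe_Ov, -3.34 in WT_Fe_Ov and -0.36 in WT_Ma_Te. The dip of miR-221-3p was thus close to the median in MT_Fe_Ov, smaller in WT_Fe_Ov and larger in WT_Ma_Te. For D120 over D30 the medians were 1.44, 2.02 and 0.78 in that order, each below the rise of miR-221-3p.

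The 5p arms of miR-222 ran the other way at D30. miR-222c-5p averaged 443 RPM at D30 and 39.2 RPM at D10 in MT_Fe_Ov. The means were 302 RPM at D30 and 44.5 RPM at D10 in WT_Fe_Ov, and 304 RPM at D30 and 36.8 RPM at D10 in WT_Ma_Te. Its log2 fold changes of D30 over D10 were 3.48 in MT_Fe_Ov (SE 0.49), 2.80 in WT_Fe_Ov (SE 0.46) and 2.83 in WT_Ma_Te (SE 0.47), all called by edgeR. miR-222a-5p was also called higher at D30 than at D10 in the 3 genotypes, on the log2 scale by 2.66 in MT_Fe_Ov, 1.93 in WT_Fe_Ov and 2.82 in WT_Ma_Te. In MT_Fe_Ov and WT_Ma_Te the arms of miR-222 thus moved in opposite directions between the same libraries. At D120 miR-222c-5p was called lower than at D30 in MT_Fe_Ov and WT_Fe_Ov, with log2 fold changes of -1.88 and -1.64. In WT_Ma_Te it was at -0.98 (adjusted p = 0.0772, edgeR). miR-222a-5p was not called between D30 and D120, with log2 fold changes of -0.68 in MT_Fe_Ov, 0.02 in WT_Fe_Ov and -0.23 in WT_Ma_Te.

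Counted over the family, 6 of 6 members were called between D10 and D30 in MT_Fe_Ov (2 higher and 4 lower at D30), 3 in WT_Fe_Ov (2 higher, 1 lower) and 5 in WT_Ma_Te (2 higher, 3 lower). Of all 399 miRNAs, 55.4% were called in MT_Fe_Ov (15.5% higher, 39.8% lower), 74.7% in WT_Fe_Ov (17.3% higher, 57.4% lower) and 60.7% in WT_Ma_Te (24.8% higher, 35.8% lower). Between D30 and D120, 3 members were called in MT_Fe_Ov, 5 in WT_Fe_Ov and 3 in WT_Ma_Te, against shares of 53.1%, 65.4% and 43.6%. The counts of MT_Fe_Ov include miR-221a-5p, for which the D30 libraries were at 0. Its level there was at least 1.96-fold lower than at D10, and at D120 it was at least 2.26-fold higher than at D30. Stage contrasts set D10 samples that hold neighbouring tissue and D30 samples of lower depth against each other.

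Whether a genotype difference itself changed with stage was tested as an interaction over the 27 libraries. For WT_Fe_Ov against WT_Ma_Te, the log2 difference in miR-222a-3p was larger at D30 than at D10 by 3.77 (edgeR, SE 0.47, adjusted p = 6.34e-07) and smaller at D120 than at D30, with an interaction of -3.56 (edgeR, SE 0.47, adjusted p = 1.37e-06). For MT_Fe_Ov against WT_Fe_Ov it was -2.47 at D30 relative to D10 (edgeR, SE 0.46, adjusted p = 0.000296) and 2.23 at D120 relative to D30 (edgeR, SE 0.46, adjusted p = 0.000828). Of the 6 members, 2 were called in each interaction of WT_Fe_Ov with WT_Ma_Te, where 49.4% of miRNAs were called for D30 relative to D10 and 44.9% for D120 relative to D30. In each interaction of MT_Fe_Ov with WT_Fe_Ov 3 were called, where 25.1% and 21.6% were. The third was miR-221a-5p, which was at 0 in D30 MT_Fe_Ov. With 1 library left out at a time, its calls held in 10 and 2 of 12 fits, in that order of stages. For MT_Fe_Ov against WT_Ma_Te the interactions of miR-222a-3p were 1.30 (edgeR, SE 0.46, adjusted p = 0.0311) and -1.33 (edgeR, SE 0.46, adjusted p = 0.0261), where 3 members were called in each, against 33.3% and 34.8% of miRNAs. The calls of miR-222a-3p were lost when single libraries were left out, in 6 of 12 such fits for D30 relative to D10 and in 7 of 12 for D120 relative to D30. Those of miR-222c-3p were lost in 8 and 5 of 12.

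Ordered by mean level over the 9 groups, miR-222a-3p was highest in D10 WT_Ma_Te (12402 RPM), followed by D30 WT_Fe_Ov (12087 RPM), D10 MT_Fe_Ov (11547 RPM) and D10 WT_Fe_Ov (9646 RPM). Then came D120 WT_Ma_Te (6681 RPM), D120 MT_Fe_Ov (4661 RPM), D120 WT_Fe_Ov (4616 RPM), D30 MT_Fe_Ov (2696 RPM) and D30 WT_Ma_Te (1374 RPM). Of the 8 pairs of neighbours in this order, 1 did not overlap, D10 WT_Fe_Ov with D120 WT_Ma_Te. It does not split the order, since D30 WT_Fe_Ov reached down to 7066 RPM and D120 WT_Ma_Te up to 7553 RPM. For miR-221-3p the 1 pair of neighbours without overlap was D10 MT_Fe_Ov with D30 WT_Ma_Te. All D30 libraries of miR-221-3p lay below all D10 and D120 libraries. Between D30 and another stage of the same genotype, 61.5% to 77.1% of all miRNAs with a count did not overlap.

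Outside the family, the miRNAs most like miR-222a-3p over the 9 group means were sought on log2(RPM + 1) among 323 that averaged at least 10 RPM. Pearson's r was highest for miR-19da-5p (0.931), miR-128-3-5p (0.913), miR-184-5p (0.869), miR-29b-1a-5p (0.861) and miR-205-1a-3p (0.858), and over the 27 libraries the same 5 had r between 0.588 and 0.670. miR-19da-5p was at 5.69 RPM in D30 MT_Fe_Ov, against 45.8 RPM in D30 WT_Fe_Ov and 7.95 RPM in D30 WT_Ma_Te, and miR-29b-1a-5p at 5.69, 94.6 and 1.72 RPM in that order. In the same order miR-128-3-5p was at 4.75, 54.3 and 5.85 RPM. miR-184-5p was at 0, 6.36 and 0 RPM, and miR-205-1a-3p at 6.21, 25.1 and 1.93 RPM. All 5 MT_Fe_Ov values lie under the mean level of 3 counts in that group, 30.5 RPM. The WT_Ma_Te values, all but that of miR-19da-5p, also lie under that of their group, 7.21 RPM. These low levels are therefore poorly measured, and the r values rest in part on them. With a pseudocount of 10 only miR-19da-5p and miR-128-3-5p stayed among the first 5. miR-205-1a-3p belongs to the skin and epithelium list, as do miR-205-1b-3p and miR-205-5p, which entered with a pseudocount of 10. Within the family r was 0.999 for miR-222c-3p, 0.416 for miR-221-3p, 0.365 for miR-221a-5p, -0.726 for miR-222a-5p and -0.634 for miR-222c-5p. These correlations share stage and library depth and are given as a description.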

How the data were processed

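Small RNA of 27 medaka gonad libraries was size-selected, adapter-ligated, amplified by PCR and sequenced on the Illumina HiSeq platform. The authors mapped reads to ASM223467v1 with miRDeep and counted them on FishmiRNA mature miRNAs. The deposited counts are whole reads per mature miRNA, not normalized. The deposited RPM values are each count divided by the library's summed miRNA counts, times 1000000. No molecular identifiers are described for these PCR reads, so limits from counts of 0 (3 counts) cover counting error only.

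Counts were tested with edgeR 4.0.16 in R 4.3.3 (quasi-likelihood F test, TMM, Benjamini-Hochberg over all miRNAs tested), keeping miRNAs that reached 10 counts in 3 or more of a fit's libraries. Genotype contrasts used the 9 libraries of a stage, stage contrasts and interactions all 27. The study used DESeq2, with an adjusted p of 0.01 in its methods and 0.05 in its summary of miRNAs. The main threshold here was 0.05, and DESeq2 1.42.0 and 0.01 were run as alternatives, with other scalings, filters, sample sets, a replicate block and each library left out. A self-test on simulated counts with known changes was run first. The named miRNAs are all family members and the 5 non-members most like miR-222a-3p. The endothelial miR-126b-3p is given beside results, as are both arms of the gonad marker miR-202, singled out after their values were seen. The family, the marker lists and the tests were chosen with earlier results of these data known.

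Replicates of a group differed far beyond sampling noise, with a chi-square per degree of freedom of 27.0 or more in each of 27 pairs. The labels call them biological replicates and do not say how many fish each holds, so p-values measure the spread between these libraries.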

Additional observations from a re-analysis of the deposited data

Results flagged for a closer look

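The genotype difference in the 3p arms of miR-222 changed between stages by a test of the interaction (edgeR, 27 libraries). For WT_Fe_Ov against WT_Ma_Te the interaction was 3.77 for miR-222a-3p and 3.70 for miR-222c-3p at D30 relative to D10, and -3.56 and -3.61 at D120 relative to D30. For MT_Fe_Ov against WT_Fe_Ov it was -2.47 and -2.51 at D30 relative to D10, and 2.23 and 2.27 at D120 relative to D30, for miR-222a-3p and miR-222c-3p in that order. For MT_Fe_Ov against WT_Ma_Te it was 1.30 and 1.19 at D30 relative to D10, and -1.33 and -1.34 at D120 relative to D30. These last calls were not stable: with 1 library left out at a time, miR-222a-3p was called in 6 and 5 of 12 fits and miR-222c-3p in 4 and 7 of 12, for D30 relative to D10 and D120 relative to D30. The copies may share reads, so each pair of values is not independent.

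miR-221a-5p also passed the test in the interactions with MT_Fe_Ov, but its fitted values depend on the prior count because every D30 MT_Fe_Ov library was at 0. They were -9.33 at D30 relative to D10 and 9.87 at D120 relative to D30 against WT_Ma_Te, and -8.98 and 8.69 against WT_Fe_Ov. With 1 library left out at a time, miR-221a-5p was called in 11 and 12 of 12 fits against WT_Ma_Te, in that order. Against WT_Fe_Ov it was called in 10 and 2 of 12, so the last of these calls was not stable.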

How the results depend on the processing

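No fold change given above for a called member reversed its sign under any alternative run. For D30 MT_Fe_Ov against WT_Ma_Te the members called numbered 0, but 2 with the DESeq2 Wald test (miR-222a-3p and miR-222c-3p, both higher), 2 with the 6 libraries compared only and 2 with all 27 libraries in 1 fit (in both, miR-222a-3p higher and miR-221a-5p lower), and 0 to 2 when single libraries were left out. For D30 MT_Fe_Ov against WT_Fe_Ov 2 were called, 0 at an adjusted p of 0.01 and 1 with the replicate block, where miR-222a-3p had a log2 fold change of -1.94 (adjusted p = 0.0538, edgeR). With all 27 libraries in 1 fit 3 were called, miR-221a-5p being the addition. At D120 a minimum of 1 count in total admitted miR-221b-5p and gave 1 call against WT_Ma_Te for each ovary group and for their average, in place of 0. For the interaction of MT_Fe_Ov with WT_Ma_Te, the 3 calls at D30 relative to D10 became 1 with library totals only and 0 at an adjusted p of 0.01, and those at D120 relative to D30 became 1 at 0.01. Leaving out single libraries gave 1 to 3 calls in both. It gave 3 to 5 calls between D30 and D120 in MT_Fe_Ov and 3 to 5 in WT_Fe_Ov, against 3 and 5. Library totals as the only scaling moved the median of all miRNAs to -0.60 in D30 MT_Fe_Ov against WT_Ma_Te, where TMM gave -0.29, and miR-222a-3p to 0.97. The cause of these shifts was not tested, apart from the filter that admitted miR-221b-5p. Replicate numbers did not pair the libraries: correlations of same-numbered deviations lay between -0.243 and 0.202, and in 0 of 15 contrasts was every pair over 0.1. The replicate block gave counts within 1.5 times in all other contrasts. Depth limits the low members most: 3 counts in the shallowest D30 MT_Fe_Ov library equal 55.0 RPM, above every D30 level of miR-221a-5p.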
